A study of Mus musculus with 200 samples.

Results

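Mouse embryo cells labelled Epi (epiblast) and carrying a Cbx2 knockout were compared with cells of the same label and the same batch that carried no knockout. The Cbx2 knockout group and the control group were chosen by their column names in the screen table, which name batch 3, the knocked-out gene and stage 5.0, and they hold 3 and 3 of the 200 libraries of the series. The series examined chromatin regulators in mouse embryos around implantation, and its screen table holds 50 groups from 10 batches, with 39 different knockouts. The Cbx2 knockout libraries are labelled with the genotype Cbx2 KO, the tissue Epi and stage E5.0. The Cbx7, Rnf2, Jarid2 and Atrx knockout libraries, the 4 other knockouts of batch 3, carry the same tissue and stage and have 3 libraries each. The control libraries carry the genotype wild type with the same tissue and stage. The 26 control libraries of the 9 other batches, used only for ranges, carry the same labels, except that the titles of the 3 of batch 8 give stage 6.0. Each library was amplified from the lysate of about 10 to 100 cells over 17 PCR cycles, and each group had 3 biological replicates, with no statement of whether they came from separate embryos. The labels name both embryos taken from the uterus and embryos cultured in a gel, without saying which library came from which, and how the knockouts were made was not given in the sources used here. Values are TPM, a level per transcript length scaled to a fixed total per library, so the depth in reads of each library is unknown.

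Cbx2 is a chromodomain subunit of canonical Polycomb repressive complex 1 (PRC1). In that complex a CBX protein reads the H3K27me3 mark laid down by Polycomb repressive complex 2 (PRC2), and the RING1 and RNF2 proteins ubiquitinate histone H2A. Cbx2 is also known for compacting nucleosomes and for its part in sex determination and in keeping Hox genes silent. At the stage studied here the mouse embryo holds the epiblast, which forms the fetus, the primitive endoderm, and the trophectoderm with its extraembryonic ectoderm. Trophoblast giant cells derived from the trophectoderm secrete hormones of the prolactin family, most of whose genes the mouse carries in a cluster on chromosome 13.

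The genes that fell furthest in the Cbx2 knockout libraries lie in that cluster, and the promoters of 5 genes of the family are shown because the results turn on them. Of these, 4 are in the cluster and Prl2c5 lies apart from it on the same chromosome. Prl3d1, Prl3d2 and Prl3d3 encode placental lactogen I and its close copies, and all 3 fell in the Cbx2 knockout libraries. Prl7d1, which encodes proliferin-related protein, was at 0 TPM in every Cbx2 knockout library, while Prl2c5, a proliferin gene, had higher values there. The sequences are from RefSeq, build GRCm38.p6, and run from 250 bases before to 50 bases after the start of the gene on its own strand, 5′ to 3′. They cover chr13:27093939-27094238 (plus strand) for Prl3d1, chr13:27121445-27121744 (plus strand) for Prl3d2, chr13:27156544-27156843 (plus strand) for Prl3d3, chr13:27716688-27716987 (minus strand) for Prl7d1 and chr13:13182466-13182765 (plus strand) for Prl2c5. Capitals mark matches to the AP-1 motif TGANTCA and to TATATA, searched on both strands, with adjoining TATATA matches run together.
Prl3d1: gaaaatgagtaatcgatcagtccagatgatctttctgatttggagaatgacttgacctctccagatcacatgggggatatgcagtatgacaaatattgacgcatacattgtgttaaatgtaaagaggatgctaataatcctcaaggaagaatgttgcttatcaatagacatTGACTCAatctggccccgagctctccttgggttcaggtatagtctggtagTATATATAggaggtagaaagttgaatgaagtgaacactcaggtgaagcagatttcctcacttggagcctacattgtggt
Prl3d2: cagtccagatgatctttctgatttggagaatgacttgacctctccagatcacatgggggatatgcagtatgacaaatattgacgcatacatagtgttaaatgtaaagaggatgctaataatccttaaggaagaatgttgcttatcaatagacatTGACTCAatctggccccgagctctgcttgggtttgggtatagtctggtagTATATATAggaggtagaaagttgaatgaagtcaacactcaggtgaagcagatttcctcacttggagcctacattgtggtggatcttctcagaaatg
Prl3d3: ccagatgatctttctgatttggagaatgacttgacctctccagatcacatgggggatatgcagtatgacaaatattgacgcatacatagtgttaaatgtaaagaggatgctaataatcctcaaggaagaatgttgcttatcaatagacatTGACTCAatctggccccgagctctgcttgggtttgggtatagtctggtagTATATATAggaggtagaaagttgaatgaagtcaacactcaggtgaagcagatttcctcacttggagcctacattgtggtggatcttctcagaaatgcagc
Prl7d1: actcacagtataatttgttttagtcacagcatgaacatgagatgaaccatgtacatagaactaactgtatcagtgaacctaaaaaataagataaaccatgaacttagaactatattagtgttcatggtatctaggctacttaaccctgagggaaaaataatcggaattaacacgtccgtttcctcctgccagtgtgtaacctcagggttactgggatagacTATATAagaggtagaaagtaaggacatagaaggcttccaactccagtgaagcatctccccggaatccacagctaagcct
Prl2c5: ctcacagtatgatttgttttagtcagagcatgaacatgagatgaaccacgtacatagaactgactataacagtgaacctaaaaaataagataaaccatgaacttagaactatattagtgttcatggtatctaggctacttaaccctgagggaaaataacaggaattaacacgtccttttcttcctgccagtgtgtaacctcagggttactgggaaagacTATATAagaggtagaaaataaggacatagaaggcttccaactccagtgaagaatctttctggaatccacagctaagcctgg

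The AP-1 motif, read by factors of the Fos and Jun families, lay in the 3 Prl3d promoters, at bases -79, -96 and -100 from the start of Prl3d1, Prl3d2 and Prl3d3, and these letters were not in the windows of Prl7d1 and Prl2c5. Of 32544 different RefSeq promoters of 300 bases, 7.79% held the AP-1 motif and 5.44% held TATATA, which all 5 shown here held. Over their central 220 bases, Prl3d1 matched Prl3d2 at 97.3% and Prl3d3 at 97.7%, and Prl3d2 matched Prl3d3 at 99.5%. Prl7d1 matched Prl2c5 at 95% there, with 11 edits, although their transcripts matched at only 60.6%. The Prl3d transcripts matched each other at 96.2% to 98.7%, so how reads were divided among these 3 genes is uncertain. A motif match is a description of the letters and shows no binding.

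Before any comparison, the label was checked against lineage markers, and the markers were divided. Otx2 and Fgf5, markers of the postimplantation epiblast, were at 0 to 2.99 and 0 to 0.931 TPM over all 18 batch 3 libraries. In the 26 control libraries of the 9 other batches, which are also labelled Epi, Otx2 had a median of 21.3 TPM (1.58 to 219) and Fgf5 a median of 22.4 TPM (0 to 62.1). The 3 of batch 8, titled stage 6.0, held the highest Otx2, at 141 to 219 TPM, and without them Otx2 had a median of 20.7 TPM (1.58 to 43.2) and Fgf5 of 20.8 TPM (0 to 62.1) in the other 23. Pou5f1, a core pluripotency factor, was present, at 40.8, 48.3 and 58.4 TPM in Cbx2 knockout libraries, against 70.4, 69.9 and 78.3 TPM in control libraries, and did not pass the test (adjusted p = 0.805). Nanog, another such factor, was at 27.04, 15.8 and 17.4 TPM in Cbx2 knockout libraries and at 29.2, 29.1 and 33.9 TPM in control libraries (adjusted p = 0.963). In all 18 batch 3 libraries Pou5f1 and Nanog lay above their medians in those 26 controls, 32.2 and 1.11 TPM. Tdgf1, another epiblast marker, lay below its median there (7.16 to 69.4 TPM against 196 TPM). Sox2 lay on both sides of its own (0.241 to 4.63 TPM against 3.09 TPM).

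Markers of the trophectoderm and of the primitive endoderm were present in both groups. Plac1, a placental gene, was at 422, 406 and 465 TPM in Cbx2 knockout libraries, against 597, 636 and 640 TPM in control libraries, and Dab2, an endocytic adaptor of the primitive endoderm, lay between 195 and 456 TPM over batch 3. Dab2 was at no more than 121 TPM in the control libraries of the other batches. Plac1 and the primitive endoderm markers Gata4, Gata6, Sox17 and Pdgfra lay above their medians in those controls in every batch 3 library. The trophectoderm markers Elf5 (16.4 to 87.7 TPM) and Eomes (3.81 to 21.9 TPM) lay below theirs, 104 and 43.2 TPM. Krt7 and Cdx2 lay on both sides of theirs, 107 and 1.04 TPM. The blood and stroma genes Ptprc, Col1a1, Col3a1 and Hba-a1 were at 0.530 TPM or less in every batch 3 library. The libraries are therefore called here by their genotype and their label, and since they are bulk samples, fewer cells of a type and less RNA per cell cannot be told apart.

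**Figure D1:**
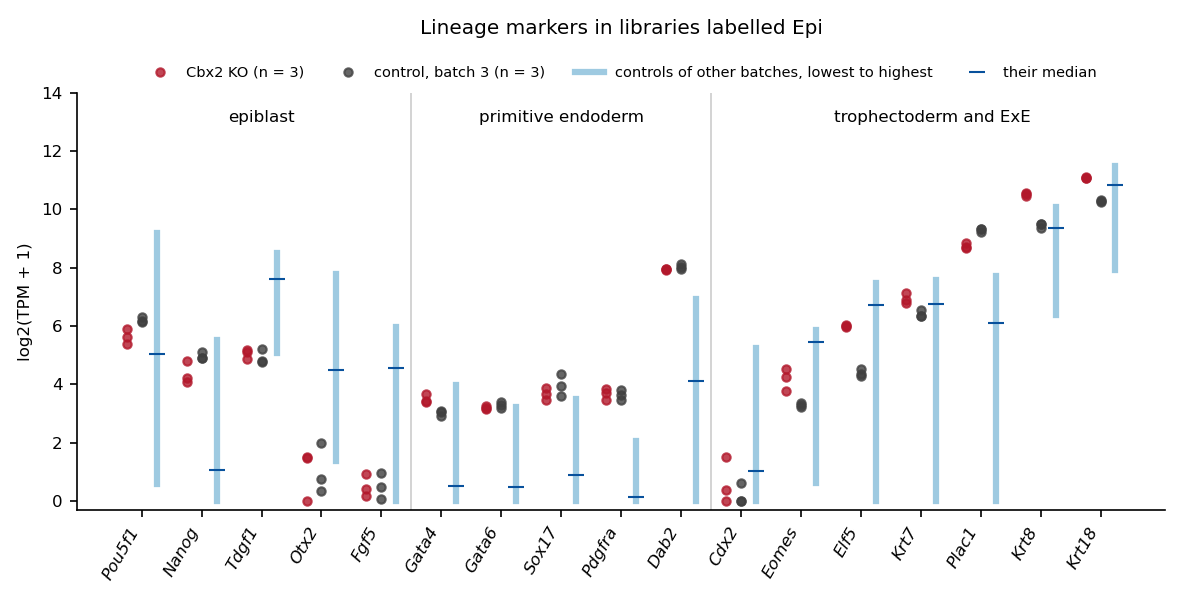
Levels of lineage markers, as log2(TPM + 1), in the Cbx2 knockout and batch 3 control libraries (one point per library, 3 each), with the lowest, median and highest of 26 control libraries of other batches as bars. Otx2 and Fgf5 lie near 0 in both batch 3 groups, below the median of the other controls, while Krt8 and Krt18 are the highest markers drawn.

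Marker lists were also summed over their members in each library. The 13 core pluripotency genes summed to 646 to 653 TPM in Cbx2 knockout libraries and 657 to 713 TPM in control libraries, and the 28 primitive endoderm markers to 2374 to 2543 TPM against 2583 to 2771 TPM. The 18 naive pluripotency genes summed to 7508 to 7523 TPM in Cbx2 knockout libraries and 8017 to 8340 TPM in control libraries, and the 23 formative and primed genes to 238 to 252 TPM against 172 to 186 TPM. The 26 markers of the trophectoderm and extraembryonic ectoderm summed to 5005 to 5163 TPM in Cbx2 knockout libraries and 8922 to 9162 TPM in control libraries. Without its prolactin genes the sum of that list went the other way. Its other 24 genes summed to 5079, 5107 and 4946 TPM in Cbx2 knockout libraries, against 3156, 3231 and 3185 TPM in control libraries. Krt8 and Krt18, keratins of simple epithelia, made up most of these sums, averaging 1463 and 2184 TPM against 697 and 1241 TPM. Whether a different share of trophectoderm cells had a part in the changes below was not tested.

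Cbx2 itself, at chr11:119022962-119031270 on the plus strand (mm10, GENCODE vM21), was too low to check the genotype. It was at 0.369, 1.17 and 1.41 TPM in Cbx2 knockout libraries, against 1.06, 0.169 and 0.778 TPM in control libraries, and the groups overlapped. The log2 change was 0.25 (95% interval -0.65 to 1.15, limma adjusted p = 0.998). Over the 50 groups of the screen the mean level of Cbx2 ran between 0.213 and 19.6 TPM, and the Cbx2 knockout group was the 10th from the lowest.

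Of 10771 genes tested against the control, 179 passed (1.66%), with 112 higher (1.04%) and 67 lower (0.622%) in the Cbx2 knockout libraries. The test was limma on log2(TPM + 1), with the spread estimated over the whole screen and an adjusted p under 0.05 by Benjamini-Hochberg. Changes on this scale understate those of genes with low levels, and the p-values measure only the spread between these libraries, which may be technical. The median change of all tested genes was 0.10 on the log2 scale. The 3 libraries of one group did not overlap the 3 of the other for 175 of the 179 genes, but the same held for 34% of all genes tested. Of the 179, 36 reached the minimum of 1 TPM in the libraries of one group alone, 14 in the Cbx2 knockout and 22 in the control, and without them 98 were higher and 45 lower. A gene that enters the test in this way had to differ, so such genes are given below by their values with no p. At least a 2-fold change was seen for 114 of the 179 genes, of which 65 were higher and 49 lower. Without 1 library, 105 to 127 genes passed, and in a fit of batch 3 alone, whose libraries varied less than the rest of the screen, 2088 did.

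**Figure D2:**
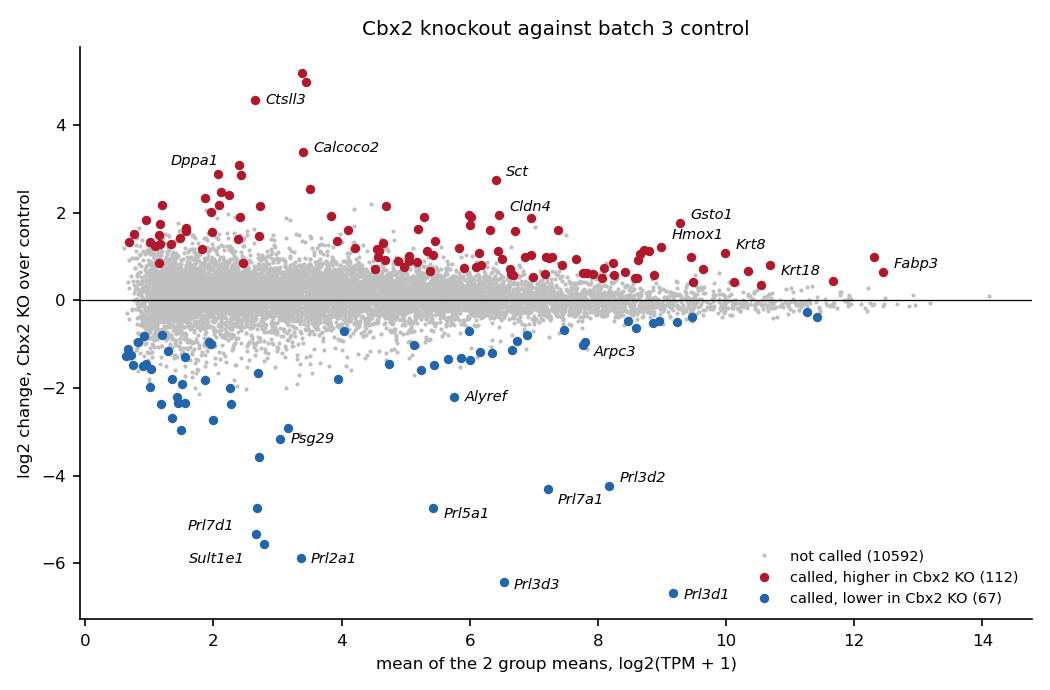
Log2 change of Cbx2 knockout over batch 3 control for each of 10771 genes, against the mean of the group means as log2(TPM + 1), with the 112 higher and 67 lower genes coloured. The prolactin genes Prl3d1 and Prl3d3 lie farthest below 0, at -6.68 and -6.44.

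The genes that fell furthest were hormone genes of the placenta. Prl3d1 (chr13:27094190-27100258), encoding placental lactogen I, was at 53.6, 56.5 and 58.7 TPM in Cbx2 knockout libraries, against 5766, 5930 and 5902 TPM in control libraries. The groups lay far apart, and the log2 change was -6.68 (95% interval -8.04 to -5.32, adjusted p = 3.38e-13). Prl3d2 (chr13:27121698-27127555) was at 64.6, 72.2 and 61.1 TPM in Cbx2 knockout libraries and at 1257, 1261 and 1248 TPM in control libraries (log2 change -4.23, SE 0.50, adjusted p = 1.2e-10). Prl3d3 (chr13:27156790-27162593) was at 8.20, 9.77 and 8.79 TPM in Cbx2 knockout libraries and at 859, 857 and 855 TPM in control libraries (log2 change -6.44, SE 0.44, adjusted p = 1.36e-23). Within each group the 3 libraries were close to each other for all 3 genes.

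Other placental members of the family fell as well. Prl7a1 (chr13:27633366-27642493, minus strand) was at 28.2, 30.9 and 38.3 TPM in Cbx2 knockout libraries, against 652, 678 and 646 TPM in control libraries (log2 change -4.31, adjusted p = 2.19e-12). Prl5a1 (chr13:28142484-28151611) was at 5.31, 10.3 and 6.80 TPM in Cbx2 knockout libraries, against 217, 206 and 234 TPM in control libraries (log2 change -4.74, adjusted p = 1.34e-11). Prl2a1 (chr13:27801654-27808729) was at 0, 0 and 1.11 TPM in Cbx2 knockout libraries, against 63.2, 72.1 and 92.7 TPM in control libraries (log2 change -5.89, adjusted p = 6.7e-11). None of these groups overlapped. Prl7d1 (chr13:27706337-27716736, minus strand) was listed at 0 in all 3 Cbx2 knockout libraries and at 38.2, 43.2 and 37.4 TPM in control libraries and it reached 1 TPM in the control alone.

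The family did not move as a whole. The table holds 26 prolactin family genes, of which 9 could be tested, with 7 lower, 1 higher and 1 that did not pass. Of all genes tested 1.66% passed. Of the 8 called family genes Prl7d1 and Prl8a1 were tested through one group alone. Among the 17 family genes not tested, 9 were at 0 in all 18 libraries of batch 3. Prl8a1 (chr13:27573922-27582171, minus strand), another placental member, was at 4.20, 2.55 and 1.43 TPM in Cbx2 knockout libraries and listed at 0 in all 3 control libraries. Prl2c5 (chr13:13182715-13191923) was at 228, 229 and 231 TPM in Cbx2 knockout libraries, against 69.2, 76.8 and 67.5 TPM in control libraries. These groups do not overlap, yet the change of 1.68 on the log2 scale (95% interval 0.51 to 2.84) did not pass (adjusted p = 0.181). It passed where the spread was taken from batch 3 alone (adjusted p = 5.2e-08) or with library weights (adjusted p = 8.32e-05). Its transcript matched those of Prl2c2 and Prl2c3 at 94.6% and 95%, and both were at 1.66 TPM or less in the 6 libraries. How reads were divided among the 3 genes was not tested.

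Summed over the family, the Cbx2 knockout libraries held 393, 412 and 408 TPM, and the control libraries 8933, 9125 and 9086 TPM. The 4 other knockouts of the batch lay in between or near the control. Their sums were 3347 to 3636 TPM in Cbx7 knockout libraries, 1145 to 1187 TPM in Rnf2 knockout libraries, 8418 to 8980 TPM in Jarid2 knockout libraries and 916 to 965 TPM in Atrx knockout libraries. All 15 of these libraries, the control included, held more than any Cbx2 knockout library. In the control libraries of other batches Prl3d1 was at 0 to 1423 TPM, so the level of the batch 3 control is above all of them.

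**Figure D3:**
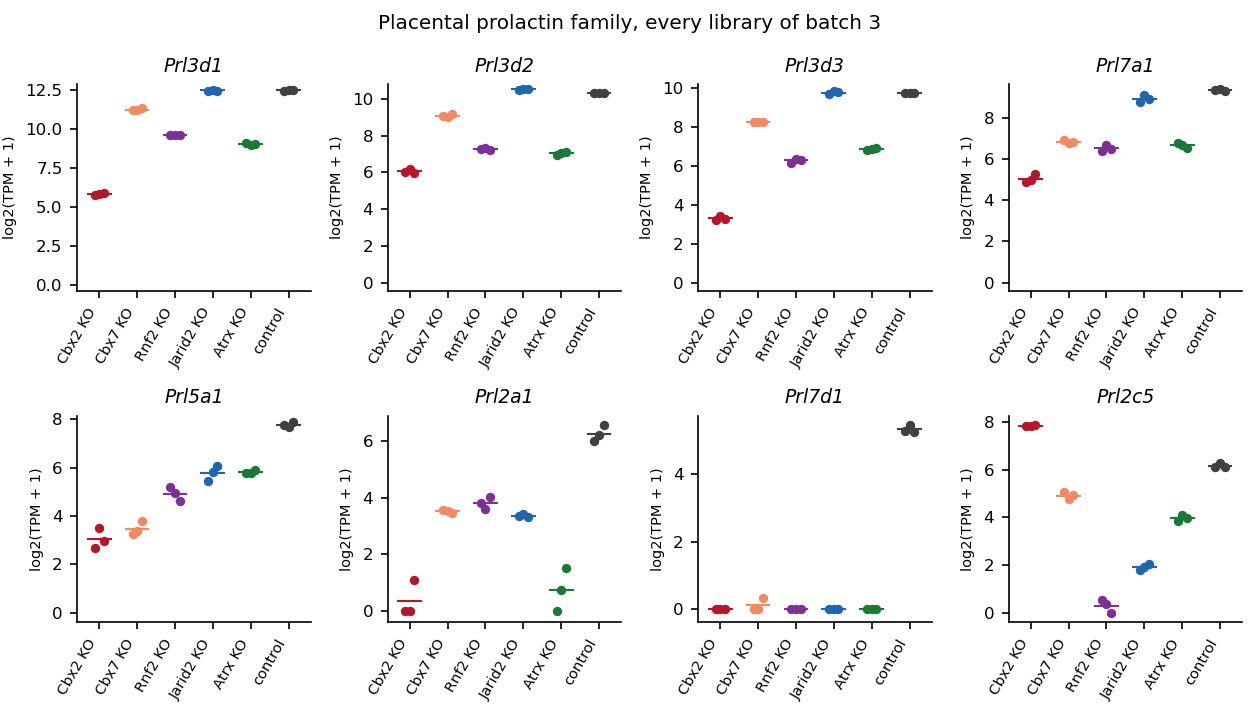
Levels of prolactin family genes as log2(TPM + 1) in each library of batch 3, with one point per library, a line at the group mean, and the Cbx2 knockout at the left and the control at the right. Prl3d1, Prl3d2 and Prl3d3 are lowest in the Cbx2 knockout, while Prl2c5 is highest there.

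Other genes with much lower values in the Cbx2 knockout libraries, several known from the placenta, were not prolactins. Sult1e1, the estrogen sulfotransferase, was listed at 0 in all 3 Cbx2 knockout libraries and at 46.3, 48.5 and 44.6 TPM in control libraries. Pate12 was at 0, 0.730 and 0 TPM in Cbx2 knockout libraries, against 37.0, 38.2 and 21.1 TPM in control libraries. Psg29, a pregnancy-specific glycoprotein, was at 3.07, 0.962 and 1.41 TPM in Cbx2 knockout libraries, against 20.2, 24.3 and 24.3 TPM in control libraries (log2 change -3.15, adjusted p = 1.48e-08). Samsn1, an adaptor known from blood cells, was listed at 0 in Cbx2 knockout libraries and at 8.13, 6.64 and 5.85 TPM in control libraries. Sult1e1, Pate12 and Samsn1 reached 1 TPM in the control alone. The groups of Sult1e1, Pate12, Psg29 and Samsn1 did not overlap. The 10 blood markers summed to 2.30 to 2.84 TPM in Cbx2 knockout libraries and 9.61 to 10.1 TPM in control libraries, with 6 of the 10 at 0 in each group, and their part in the values of Samsn1 was not tested.

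In a pair of small placental gene families, picked after the values were seen, every call was a fall. In the Serpinb9 cluster of serine protease inhibitors 4 of 7 tested genes were lower and 0 higher, with Serpinb9f, Serpinb9g and Serpinb9h tested through the control alone. The counts of both families stand beside 0.622% of all genes tested that were lower. Serpinb9e was at 0.960, 0 and 1.97 TPM in Cbx2 knockout libraries, against 25.8, 20.5 and 15.9 TPM in control libraries (log2 change -3.57, adjusted p = 1.04e-05), and its transcript matched that of Serpinb9f at 95%. Serpinb9f was at 0.281, 0 and 0.391 TPM in Cbx2 knockout libraries, against 4.38, 7.37 and 2.89 TPM in control libraries. Both tested pregnancy-specific glycoproteins, Psg29 and Psg22, fell. Psg22 was at 1.96, 1.22 and 3.88 TPM in Cbx2 knockout libraries, against 19.4, 21.9 and 28.1 TPM in control libraries (adjusted p = 0.00709), a call lost without Cbx2 knockout replicate 2 (0.0872), without control replicate 3 (0.0639) or with a pseudocount of 0.1 (0.18). On chromosome 13, 12 of 410 tested genes were lower (2.93%, against 0.622% over all chromosomes). They were the 7 prolactin genes, Serpinb9e, Serpinb9f, Serpinb9g, Cts8 and the predicted gene Gm15290, of which Prl7d1, Serpinb9f, Serpinb9g, Cts8 and Gm15290 were tested through the control alone. Those tested in that way had to be lower, and the others are described above, so the share restates these falls.

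Outside the placental genes, some falls were in genes that every cell uses, also picked after the values were seen. Alyref, an mRNA export factor, was at 27.3, 20.6 and 25.1 TPM in Cbx2 knockout libraries, against 103, 124 and 118 TPM in control libraries (log2 change -2.20, SE 0.29, adjusted p = 4.15e-09). Arpc3, a subunit of the actin-nucleating Arp2/3 complex, was at 143, 164 and 150 TPM in Cbx2 knockout libraries, against 321, 319 and 292 TPM in control libraries (log2 change -1.03, SE 0.18, adjusted p = 2.77e-05). Neither pair of groups overlapped. Alyref averaged 24.7, 32.5, 86.4 and 23.5 TPM in the Cbx7, Rnf2, Jarid2 and Atrx knockouts, and the Cbx2 knockout did not differ from their mean past the threshold (log2 change -0.53, adjusted p = 0.841). Arpc3 averaged 121, 153, 228 and 133 TPM in those 4 knockouts (log2 change of the Cbx2 knockout over their mean -0.02, adjusted p = 1). Osr2, a zinc finger transcription factor, was at 0.445, 0.424 and 2.95 TPM in Cbx2 knockout libraries, against 9.32, 10.1 and 8.77 TPM in control libraries (log2 change -2.37, adjusted p = 0.00069, but 0.318 with a pseudocount of 0.1).

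The largest rises included a cathepsin-like gene of the placenta and enzymes, channels and transporters. Ctsll3 (chr13:60798250-60802849, minus strand), a cathepsin L-like protease gene, was at 29.7, 26.0 and 32.9 TPM in Cbx2 knockout libraries, against 0, 0.384 and 0.497 TPM in control libraries, and it reached 1 TPM in the Cbx2 knockout alone. BC051665, its neighbour in sequence with a transcript match of 84.8%, was at 58.9, 67.7 and 54.3 TPM in Cbx2 knockout libraries, against 0.0707, 1.26 and 0.957 TPM in control libraries (log2 change 5.18, adjusted p = 3.38e-13). BC053393, which has no gene name beyond its clone, was at 61.9, 53.2 and 57.0 TPM in Cbx2 knockout libraries, against 1.16, 1.88 and 0 TPM in control libraries (log2 change 4.98, adjusted p = 1.24e-17). Both clones were named after their values were seen. Of 10 placental cathepsin-like genes 3 could be tested, with Ctsll3 and BC051665 higher, while Cts8 was listed at 0 in all 3 Cbx2 knockout libraries and at 3.85, 3.47 and 1.88 TPM in control libraries.

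Sct (chr7:141278330-141279133, minus strand), which encodes the peptide hormone secretin, was at 211, 217 and 229 TPM in Cbx2 knockout libraries, against 31.2, 32.3 and 31.7 TPM in control libraries. These groups lay far apart, with a log2 change of 2.75 (SE 0.41, adjusted p = 3.59e-07). In the control libraries of other batches Sct was at no more than 14.3 TPM. Calcoco2, a receptor of selective autophagy, was at 35.5, 30.5 and 31.6 TPM in Cbx2 knockout libraries, against 2.90, 2.52 and 1.42 TPM in control libraries (log2 change 3.38, adjusted p = 1.51e-07). Dppa1 was at 13.8, 15.9 and 13.8 TPM in Cbx2 knockout libraries, against 0.776, 0.829 and 0.830 TPM in control libraries, and it reached 1 TPM in the Cbx2 knockout alone. Aqp3, a water and glycerol channel, was at 23.0, 29.7 and 26.5 TPM in Cbx2 knockout libraries, against 3.78, 2.89 and 4.53 TPM in control libraries (log2 change 2.54, adjusted p = 1.64e-06). In all 4 of these genes the lowest Cbx2 knockout library was above the highest control library.

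The rest of the 12 largest rises had log2 changes between 2.16 and 2.86. Ptges, which makes prostaglandin E2, was at 11.8, 17.95 and 11.2 TPM in Cbx2 knockout libraries, against 0.733, 1.27 and 0.977 TPM in control libraries (adjusted p = 6.6e-05). Fbp2, a fructose bisphosphatase, was at 55.6, 48.5 and 51.6 TPM in Cbx2 knockout libraries, against 13.7, 6.05 and 14.9 TPM in control libraries (adjusted p = 0.000415). Duoxa2, a maturation factor of the dual oxidase 2, was at 7.70, 7.31 and 7.51 TPM in Cbx2 knockout libraries, against 1.10, 2.204 and 0 TPM in control libraries (adjusted p = 3.32e-05). Its median in the control libraries of other batches was 134 TPM, far above both groups. The zinc importer Slc39a2 and the glutamate transporter Slc1a1 rose as well, with log2 changes of 2.48 and 2.16 (adjusted p = 0.000248 and 0.000986). H2ac19, a histone H2A gene, and Havcr1, a cell surface receptor, passed with log2 changes of 2.39 and 2.34 (adjusted p = 0.00495 and 0.00634), but neither call was stable. H2ac19 lost its call without Cbx2 knockout replicate 2 (adjusted p = 0.0521) or control replicate 2 (0.0561), and Havcr1 without control replicate 2 (0.110) or 3 (0.101).

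**Figure D4:**
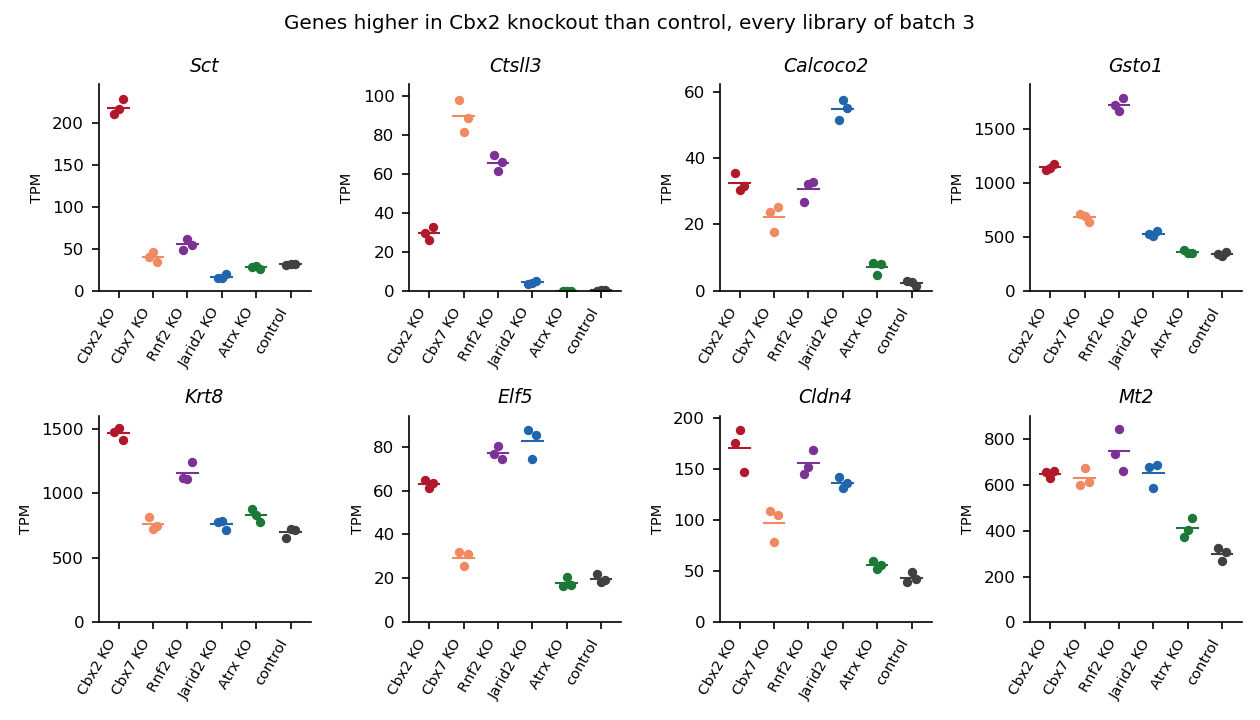
Levels in TPM of genes with higher values in the Cbx2 knockout than in the control, in each library of batch 3, with one point per library, a line at the group mean, and the Cbx2 knockout at the left and the control at the right. Sct is at 211 to 229 TPM in the Cbx2 knockout alone, while several other genes are as high in some of the 4 other knockouts as in the Cbx2 knockout.

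Several trophectoderm markers other than prolactin genes were higher. Of 22 tested members of the trophectoderm and extraembryonic ectoderm list, 6 rose, 1 fell (Prl3d1) and 15 did not pass, and the median change was 0.51, beside 0.10 over all genes. Of all genes tested 1.66% passed. Krt8 (chr15:101996698-102004482, minus strand), a keratin of simple epithelia, was at 1473, 1508 and 1407 TPM in Cbx2 knockout libraries, against 652, 723 and 715 TPM in control libraries (log2 change 1.07, SE 0.13, adjusted p = 2.26e-10). Its partner Krt18 was at 2217, 2183 and 2152 TPM in Cbx2 knockout libraries, against 1268, 1216 and 1239 TPM in control libraries (log2 change 0.82, SE 0.10, adjusted p = 1.8e-09). For both keratins the groups lay apart.

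Elf5, a transcription factor of trophoblast stem cells, was at 64.6, 61.2 and 63.4 TPM in Cbx2 knockout libraries, against 22.0, 18.5 and 19.3 TPM in control libraries (log2 change 1.62, adjusted p = 1.15e-07). Hand1, a transcription factor that trophoblast giant cells need, was at 96.3, 112 and 98.1 TPM in Cbx2 knockout libraries, against 49.5, 45.5 and 47.4 TPM in control libraries (log2 change 1.09, adjusted p = 0.0114). The Hand1 call was lost without Cbx2 knockout replicate 2 (adjusted p = 0.0925), control replicate 2 (0.0732) or control replicate 3 (0.0565). In the control libraries of other batches Elf5 had a median of 104 TPM, above the Cbx2 knockout, and Hand1 of 106 TPM, near it. Krt8 and Krt18 had medians of 663 and 1822 TPM there, below the Cbx2 knockout. Ly6a, a surface antigen, also rose, with a log2 change of 0.76. Gata3, Eomes and Krt7 had changes of 1.17, 0.89 and 0.53 that did not pass (adjusted p = 0.0897, 0.164 and 0.372), although Eomes passed in the fit of batch 3 alone (adjusted p = 0.00574). Plac1, whose values are given above, had a change of -0.53 (adjusted p = 0.476).

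Some single genes of the epithelial surface, picked after their values were seen, also rose. Cldn4, a tight junction claudin, was at 175, 189 and 147 TPM in Cbx2 knockout libraries, against 39.7, 49.6 and 42.1 TPM in control libraries (log2 change 1.94, adjusted p = 5.22e-06). Tspan8, a tetraspanin, was at 130, 107 and 133 TPM in Cbx2 knockout libraries, against 29.9, 31.9 and 32.1 TPM in control libraries (log2 change 1.94, adjusted p = 7.34e-05). Neither pair of groups overlapped. Of 7 tested claudins 2 rose and 5 did not pass, and of 4 tested simple keratins 2 rose, beside 1.66% of all genes tested that passed.

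A further set, also picked afterwards, takes part in detoxification and metal binding. Gsto1, an omega class glutathione transferase, was at 1119, 1144 and 1179 TPM in Cbx2 knockout libraries, against 340, 321 and 357 TPM in control libraries (log2 change 1.75, SE 0.12), and had the smallest adjusted p of those named here, at 5.4e-24. Hmox1, which degrades heme, was at 816, 723 and 786 TPM in Cbx2 knockout libraries, against 319, 328 and 352 TPM in control libraries (log2 change 1.22, adjusted p = 1.94e-10). In the control libraries of other batches Gsto1 had a median of 1687 TPM, above the Cbx2 knockout, and Hmox1 of 237 TPM, below it. The metallothionein Mt1 was at 992, 946 and 1019.7 TPM in Cbx2 knockout libraries, against 535, 487 and 462 TPM in control libraries (log2 change 1.00, adjusted p = 2.99e-11). Mt2, its neighbour, rose by 1.12 (adjusted p = 2.01e-12), and 2 of 3 tested metallothioneins rose. Of 19 tested glutathione transferases 3 rose and 0 fell, the others being Gsta1 (0.98) and Gsta2 (0.90), whose transcripts matched at 96.7%, so that their reads may be shared. The counts of both families stand beside 1.66% of all genes tested that passed.

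Of the tested Polycomb genes none passed with the spread of the whole screen, while some did with other estimates of the spread. Of 9 tested subunits of canonical PRC1, 0 passed, with a median change of 0.17, and the same held for 20 subunits of variant PRC1 (median 0.26) and 11 of PRC2 (median 0.19). Over all genes tested 1.66% passed, so 0 calls in lists of this size, here and below, lay near that share. Cbx7, the CBX protein of naive stem cells, was at 16.2, 16.5 and 11.6 TPM in Cbx2 knockout libraries, against 10.2, 7.86 and 9.26 TPM in control libraries (log2 change 0.64, adjusted p = 0.832). Cbx8, another CBX protein, was at 2.88, 6.51 and 5.25 TPM in Cbx2 knockout libraries and at 5.22, 3.06 and 4.29 TPM in control libraries, and the groups overlapped. The E3 ligase Rnf2 was at 54.8, 57.4 and 61.5 TPM in Cbx2 knockout libraries and at 47.8, 49.9 and 61.2 TPM in control libraries (log2 change 0.13, adjusted p = 0.998), while its partner Ring1 was at 1.65 TPM or less in all 6 libraries. The remaining canonical subunits Phc1, Phc2, Bmi1 and Pcgf2 had changes of 0.28, -0.05, 0.27 and -0.03. Pcgf6, of variant PRC1, had the smallest p of its list, with 59.2, 63.9 and 42.7 TPM in Cbx2 knockout libraries, against 32.6, 26.9 and 36.0 TPM in control libraries (log2 change 0.77, adjusted p = 0.187). In the fit of batch 3 alone Cbx7 (adjusted p = 0.0243) and, of variant PRC1, Pcgf6 (0.00561) and Csnk2b (0.00183) passed, and all 3 also passed with library weights (0.0207, 0.000106 and 0.00153). Of all 10771 genes tested, 2088 passed in that fit, 1681 in the fit of the 6 libraries alone and 1903 with library weights. Passes of single genes under these settings, here and below, stand beside those counts.

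Among the PRC2 members Suz12, a core subunit, was at 22.4, 20.4 and 23.8 TPM in Cbx2 knockout libraries, against 14.7, 17.2 and 13.6 TPM in control libraries (log2 change 0.52, adjusted p = 0.832). Suz12 passed in the fit of batch 3 alone (adjusted p = 0.014) and with library weights (0.0228). Jarid2, which helps recruit PRC2, had a change of 0.62 (adjusted p = 0.675) and passed with library weights alone (0.0022). The enzymes Ezh2 and Ezh1 had changes of 0.02 and 0.32, and Eed, Rbbp4 and Rbbp7 had changes of 0.12, 0.10 and -0.11. No member passed among 9 other chromodomain proteins (median 0.07, with Cbx3 at -0.57), 7 erasers of H2AK119 and H3K27 marks (median 0.05) or 12 COMPASS subunits (median 0.22), which methylate H3K4. In these lists Cbx1 had a change of -0.28, Uty of -0.95, Asxl2 of 0.20, Kmt2c of 0.61 and Kmt2d of -0.48. In the fit of batch 3 alone Cbx3 passed (adjusted p = 0.000264), as did Uty (0.00872), and with library weights Cbx1, Kmt2c and Kmt2d also passed (0.0136, 0.0163 and 0.0123).

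Genes that Polycomb is known to silence were mostly too low to test. Of 39 Hox genes in the table, 5 could be tested and 0 passed. Hoxb13 was at 5.10, 3.36 and 2.80 TPM in Cbx2 knockout libraries and at 0.615, 1.87 and 1.19 TPM in control libraries (log2 change 1.10, adjusted p = 0.704, but 0.0307 in the fit of the 6 libraries alone). Of 13 tested developmental Polycomb targets 1 rose, Hand1, beside 1.66% of all genes tested that passed. Their median was 0.21, and 52 were not tested. Of 6 tested cell cycle inhibitors 0 passed (median -0.04), Cdkn2a being at 1.35, 0.211 and 0 TPM in Cbx2 knockout libraries and at 1.82, 1.73 and 2.01 TPM in control libraries (adjusted p = 0.631, but 0.0453 in the fit of batch 3 alone). Cdkn1c passed with library weights (adjusted p = 0.024). Of the genes of gonad and sex determination only Gata4 and Nr0b1 could be tested, with changes of 0.48 and 0.33 that did not pass.

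**Figure D5:**
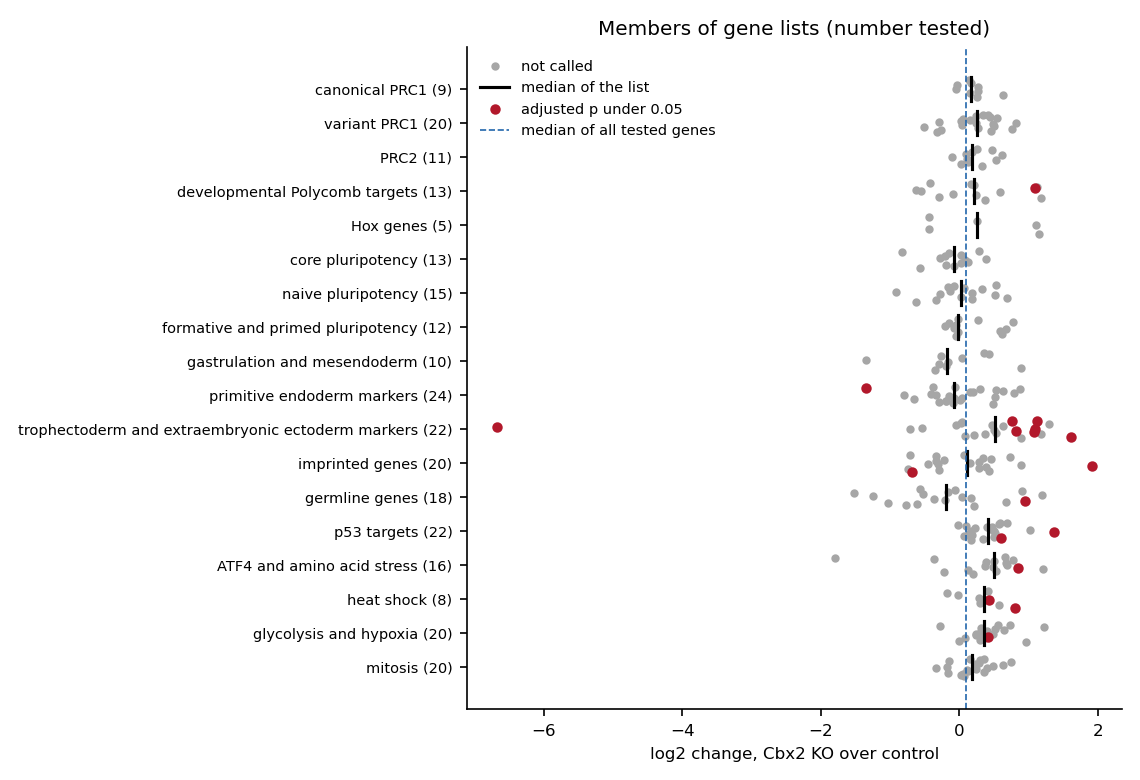
Log2 change of Cbx2 knockout over control for each tested member of the gene lists, one point per gene, with coloured points at an adjusted p under 0.05, a bar at the median of each list, and a dashed line at the median of all tested genes, 0.10. The trophectoderm list holds the widest range, -6.68 to 1.62, and no canonical PRC1, PRC2 or Hox gene is coloured.

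The pluripotency and lineage lists held few calls with the spread of the whole screen, under which 1.66% of all genes tested passed. No member passed among 13 core (median -0.08), 15 naive (0.03) and 12 formative and primed pluripotency genes (-0.02), 10 gastrulation genes (-0.18) or 16 Nodal pathway genes (0.01). Dppa5a, the most abundant of the naive genes, was at 7040.2, 7015 and 7063 TPM in Cbx2 knockout libraries, against 7893, 7764 and 7577 TPM in control libraries (log2 change -0.14, adjusted p = 0.915). The DNA methylation genes Dnmt3l and Dnmt3b had changes of 0.68 and 0.59 (adjusted p = 0.205 and 0.217), and the naive factor Klf5 of 0.68 (adjusted p = 0.75). Gdf3, a Nodal-related ligand, had a change of -0.83 (adjusted p = 0.537) and Furin, a protease that processes Nodal, of -0.80 (adjusted p = 0.579), while Dppa4 and Hhex had changes of 0.39 and -1.35 that did not pass either. In the fit of batch 3 alone Dnmt3l (adjusted p = 5.21e-06), Gdf3 (0.00169), Dnmt3b (0.00182), Klf5 (0.00434), Dppa5a (0.0149), Furin (0.0155), Hhex (0.0157) and Dppa4 (0.0425) passed. In that fit 2088 of all 10771 genes tested passed. Of 24 tested primitive endoderm markers 1 fell and 0 rose (median -0.08). It was Spink1, a trypsin inhibitor, at 44.7, 36.3 and 36.6 TPM in Cbx2 knockout libraries, against 110, 95.3 and 98.8 TPM in control libraries (log2 change -1.35, adjusted p = 0.0151). Its call was lost with a pseudocount of 0.1 (adjusted p = 0.379) and without any one library (0.0570 to 0.105) except Cbx2 knockout replicate 1 (0.0344).

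Signalling targets gave a few single calls, beside 1.66% of all genes tested. Of 10 tested BMP signals and targets 1 rose (median 0.14), the inhibitor of helix-loop-helix factors Id2, at 597, 625 and 662 TPM in Cbx2 knockout libraries, against 286, 272 and 284 TPM in control libraries (log2 change 1.16, SE 0.13, adjusted p = 4.62e-12). Of 12 FGF and ERK feedback genes 1 rose (median 0.29), the ERK phosphatase Dusp6, at 27.3, 27.9 and 25.9 TPM in Cbx2 knockout libraries, against 11.8, 10.0 and 11.8 TPM in control libraries (log2 change 1.20, adjusted p = 0.0136). Of 13 immediate early genes 1 rose (median 0.40), the phosphatase Dusp1 (log2 change 0.99, adjusted p = 0.0119). The Dusp6 call was lost without any one of the 6 libraries (adjusted p 0.0501 to 0.110). The Dusp1 call was lost without Cbx2 knockout replicate 2 or 3 or control replicate 1 or 2 (0.0577 to 0.0725).

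Imprinted and germline genes were each represented by 1 or 2 calls. Mest, an imprinted gene expressed from the paternal copy, was at 25.9, 23.7 and 29.9 TPM in Cbx2 knockout libraries, against 4.68, 6.07 and 8.48 TPM in control libraries (log2 change 1.92, adjusted p = 0.00011). H19, a noncoding RNA expressed from the maternal copy, was at 131, 151 and 132 TPM in Cbx2 knockout libraries, against 221, 205 and 244 TPM in control libraries (log2 change -0.69, adjusted p = 0.00951), a call lost without Cbx2 knockout replicate 1 (0.0705) or 3 (0.0660) or control replicate 3 (0.104). They were the 2 of 20 tested imprinted genes that passed, beside 1.66% of all genes tested, and the median was 0.11. Of 18 tested germline genes 1 rose (median -0.19), Tex19.1, at 217, 212 and 199 TPM in Cbx2 knockout libraries, against 111, 109 and 102 TPM in control libraries (log2 change 0.95, adjusted p = 4.57e-05). No gene of the 2-cell stage list was tested.

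Stress and metabolic lists had medians above that of all genes, as did other lists, such as variant PRC1 (0.26) and FGF and ERK feedback (0.29). The calls counted in them stand beside 1.66% of all genes tested that passed. Of 22 tested p53 targets 2 rose (median 0.42), Perp, a desmosome protein, with 70.5, 77.1 and 61.0 TPM in Cbx2 knockout libraries, against 24.0, 29.2 and 26.1 TPM in control libraries (log2 change 1.36, adjusted p = 6.06e-05), and Ccng1 (log2 change 0.60, adjusted p = 0.0247). Of 16 ATF4 and amino acid stress genes 1 rose (median 0.50), the serine synthesis enzyme Psat1, at 378, 410 and 415 TPM in Cbx2 knockout libraries, against 212, 218 and 239 TPM in control libraries (log2 change 0.84, adjusted p = 2.9e-07). Of 20 glycolysis and hypoxia genes 1 rose (median 0.36), the glycolytic enzyme Aldoa (0.41, adjusted p = 0.0276), and of 8 heat shock genes 2 rose (median 0.35), Hspa8 (0.43, adjusted p = 0.000243) and Hsph1 (0.80, adjusted p = 0.0156). The Aldoa call was lost without any one of the 6 libraries (adjusted p up to 0.177), and those of Ccng1 (up to 0.198) and Hsph1 (up to 0.0891) without any one except Cbx2 knockout replicate 1. No member passed among 20 mitosis genes (median 0.19), 22 ribosome biogenesis genes (0.16) or 25 genes of autophagy and vesicle trafficking (0.21). Top2a, the topoisomerase of dividing cells, came nearest, at 48.8, 51.0 and 51.9 TPM in Cbx2 knockout libraries, against 29.6, 30.6 and 28.9 TPM in control libraries (log2 change 0.75, adjusted p = 0.068, and 1.78e-05 in the fit of batch 3 alone). Cenpf, of mitosis, Nop14 and Mybbp1a, of ribosome biogenesis, and Ctsb and Sqstm1, of autophagy, also passed in that fit (adjusted p = 0.00742, 0.0037, 0.0189, 1.38e-05 and 9.74e-06). So did 2088 of all 10771 genes tested.

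The sexes of the embryos behind the libraries are not given, and sex-linked genes differed in level between the groups, passing with some estimates of the spread. The 4 Y-linked genes summed to 32.7 to 51.5 TPM in Cbx2 knockout libraries and 57.4 to 70.6 TPM in control libraries, and the 4 X inactivation genes to 50.2 to 62.3 TPM against 15.3 to 34.6 TPM. Xist, the RNA that coats the inactive X, was at 10.5, 11.2 and 9.33 TPM in Cbx2 knockout libraries and at 8.83, 3.85 and 5.68 TPM in control libraries (adjusted p = 0.585). In the fit of batch 3 alone Uty (adjusted p = 0.00872), Xist (0.0254) and Tsix (0.0264) passed, and all 3 also passed with library weights (0.00969, 0.00836 and 0.0193). Of all 10771 genes tested, 2088 and 1903 passed under these settings. With the spread of the whole screen, 0 of 3 tested genes in each list passed (medians -0.59 and 0.93), as did 0 of 2 blood markers (median -1.02) and 0 of 1 stromal marker (-0.30). The blood marker Cd52 passed in the fit of batch 3 alone (adjusted p = 0.000648). Whether a different mix of male and female cells had a part in the other results was not tested.

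The Cbx2 knockout was next set against the mean of the 4 other knockouts of its batch, a comparison that shares the Cbx2 knockout libraries with the one against the control. Of 11857 genes tested 77 passed (0.649%), with 52 higher and 25 lower, and for 29 of the 77 the 3 Cbx2 knockout libraries lay outside all 12 others, beside 1.94% of all genes tested. Prl2c5 had the largest rise named, with averages of 29.3, 0.242, 2.80 and 14.8 TPM in the Cbx7, Rnf2, Jarid2 and Atrx knockouts beside its 228 to 231 TPM in the Cbx2 knockout (log2 change 5.07, 95% interval 4.15 to 5.99, adjusted p = 1.65e-15). Sct averaged 40.7, 55.4, 16.8 and 28.1 TPM in those knockouts (log2 change of the Cbx2 knockout over their mean 2.73, adjusted p = 4.14e-10). Both genes were thus higher in the Cbx2 knockout libraries than in any other library of batch 3.

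Selenop, a selenium transport protein, was at 35.3, 35.1 and 39.6 TPM in Cbx2 knockout libraries and averaged 2.50 to 5.29 TPM in the 4 other knockouts (log2 change 3.09, adjusted p = 0.000288). Against the control, where Selenop was at 8.27, 6.57 and 9.02 TPM, its change of 2.08 did not pass (adjusted p = 0.204). S1pr1, a receptor for sphingosine 1-phosphate, was at 25.2, 21.6 and 23.0 TPM in Cbx2 knockout libraries and averaged 10.2, 16.2, 13.7 and 3.80 TPM in the Cbx7, Rnf2, Jarid2 and Atrx knockouts (log2 change 1.18, adjusted p = 2.01e-06). Hand1 was higher by 1.11 (adjusted p = 0.0004), with averages of 32.4, 77.8, 88.6 and 21.2 TPM. Ankrd1, Ecm1, Tmem176a, Ttr, Tmem176b, Tmem140 and Dnase1l3 were higher by 2.29, 1.78, 1.75, 1.56, 1.44, 1.20 and 1.05. With a pseudocount of 0.1 in place of 1, Selenop and these 7 no longer passed (adjusted p 0.0801 to 1). Without a single Cbx2 knockout library the calls of Ecm1, Tmem176b and Dnase1l3 were lost whichever was left out (adjusted p up to 0.355, 0.217 and 0.0798), that of Tmem140 without replicate 1 or 3 (0.145 and 0.353) and that of Tmem176a without replicate 2 (0.121), and that of Ecm1 also without Jarid2 knockout replicate 1 (0.0521). Against the control, Tmem176a and Tmem140 were also higher (adjusted p = 0.0037 and 0.0154), while Ankrd1, Ecm1, Ttr, Tmem176b and Dnase1l3 did not pass. Ttr averaged 18.1 TPM in Cbx2 knockout libraries, against 24.1 TPM in control libraries, and Ecm1 10.4 TPM against 8.51 TPM.

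Prl3d1 was lower in the Cbx2 knockout than in the mean of the other knockouts by 4.77 on the log2 scale (adjusted p = 8.39e-11). It averaged 2448, 795, 5787 and 528 TPM in the Cbx7, Rnf2, Jarid2 and Atrx knockouts. Prl3d3, Prl2a1, Prl3d2, Prl7a1 and Prl5a1 had changes of -4.48, -2.50, -2.42, -2.19 and -1.95, all past the threshold. Prl7d1 was at 0.254 TPM or less in all 12 libraries of the other knockouts, so its level in the control stands alone in the batch. Sptssb, a subunit factor of serine palmitoyltransferase, was at 3.22, 3.24 and 1.90 TPM in Cbx2 knockout libraries and averaged 6.98, 10.6, 5.11 and 5.02 TPM in those 4 knockouts (log2 change -1.02, adjusted p = 1.67e-05). Sptssb did not pass with a pseudocount of 0.1 (adjusted p = 0.69).

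For other genes the Cbx2 knockout did not differ from the other knockouts past the threshold. Ctsll3 averaged 89.5, 65.9, 4.28 and 0 TPM in the Cbx7, Rnf2, Jarid2 and Atrx knockouts, and the Cbx2 knockout over their mean had a change of 1.19 (95% interval 0.43 to 1.95, adjusted p = 0.223). Calcoco2 averaged 22.3, 30.5, 54.7 and 7.13 TPM there (log2 change 0.49, 95% interval -0.28 to 1.27). Mt2 averaged 629, 749, 652 and 411 TPM there (log2 change 0.13, 95% interval -0.06 to 0.32). In each of these 3 genes the control was below every average of the other knockouts, except that Ctsll3 was near 0 in both the Atrx knockout and the control.

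Cbx7 and Rnf2 encode partners of the same complex, and their knockouts were compared with the Cbx2 knockout one at a time. Over the Cbx7 knockout 68 of 10688 genes passed (0.636%), with 46 higher and 22 lower. Of these, 9 reached 1 TPM in the Cbx2 knockout alone and 7 in the Cbx7 knockout alone, and so had to differ. Without them 37 were higher and 15 lower. Prl3d1 was lower by 5.42 and Prl3d3 by 4.95 in the Cbx2 knockout (adjusted p = 1.15e-08 and 6.53e-16), and Krt8 was higher by 0.94 (adjusted p = 1.04e-07), Elf5 by 1.08 (adjusted p = 0.00331) and Hand1 by 1.63 (adjusted p = 2.06e-05). Over the Rnf2 knockout 73 of 10843 genes passed (0.673%), with 38 higher and 35 lower. Of these, 4 reached 1 TPM in the Cbx2 knockout alone and 7 in the Rnf2 knockout alone. Without them 34 were higher and 28 lower. Prl3d1 was lower there by 3.80 and Prl3d3 by 2.97 (adjusted p = 0.000176 and 8.66e-07), while Prl2c5, described above, reached 1 TPM in the Cbx2 knockout alone. Prl3d2 and Prl7a1 had changes of -1.22 and -1.48 over the Rnf2 knockout that did not pass (adjusted p = 0.747 and 0.175).

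The keratins did not pass over the Rnf2 knockout. Krt8 averaged 1463 TPM in the Cbx2 knockout and 1155 TPM in the Rnf2 knockout (log2 change 0.34, 95% interval 0.08 to 0.60, adjusted p = 0.54), and Krt18 averaged 2184 TPM against 2076 TPM (log2 change 0.07, 95% interval -0.13 to 0.28). Elf5 and Hand1 had changes of -0.29 and 0.39 that did not pass. Gsto1 ran the other way, being lower in the Cbx2 knockout than in the Rnf2 knockout by 0.59 (adjusted p = 0.000895) and higher than in the Cbx7 knockout by 0.75 (adjusted p = 4e-06). The 24 trophectoderm markers without prolactins summed to 4946 to 5107 TPM in the Cbx2 knockout, 4761 to 5055 TPM in the Rnf2 knockout and 3004 to 3235 TPM in the Cbx7 knockout. Krt8 and Krt18 made up most of each of these sums.

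Measures of the libraries themselves differed between the groups too. Cbx2 knockout libraries held 10651 to 10699 genes at 1 TPM or more, against 10427 to 10506 in control libraries, so these ranges did not overlap, and the whole screen ran between 7236 and 11315. Rn45s, the precursor of ribosomal RNA, which selection of polyadenylated RNA leaves in varying amounts, was at 7210, 7515 and 6795 TPM in Cbx2 knockout libraries, against 3735, 3512 and 3539 TPM in control libraries (log2 change 1.00, adjusted p = 0.0137). It averaged 4505, 3999, 2571 and 6934 TPM in the Cbx7, Rnf2, Jarid2 and Atrx knockouts. Whether the RNA or its selection differed, and had a part in the results above, was not tested. Over genes at 100 TPM or more the median coefficient of variation within a group was 4.99% in the Cbx2 knockout and 5.01% in the control, where the 44 groups of the other batches had a median of 8.26%. All libraries compared carry the same batch number, so no comparison within them crosses batches.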

How the data were processed

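Polyadenylated RNA of the libraries described above was measured by sequencing. The deposited screen table holds TPM values per gene, scaled by the authors to a near-constant total per library; the tools listed in the submitters' processing notes are Cufflinks, StringTie 2.2.1 and HISAT2 2.2.1, the build is mm10, and no role is given for any of them. The table gives no read counts, so no counting interval is given. Columns were mapped to samples by title, and 0 columns held values of no sample.

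Differences were tested by limma 3.58.1, run in R 4.3.3 with data.table, version 1.17.8, after adding a pseudocount of 1 and taking log2, with Benjamini-Hochberg adjustment at 0.05. A gene entered a test when 3 or more of the compared libraries held 1 TPM or more of it. The fit held all 50 groups of the screen with one estimate of the spread; 3 nearly identical libraries of one other knockout (Aurkb) were averaged, which left 146 libraries. Changes are log2 differences of group means, Cbx2 knockout first. The test was checked on simulated data. The members and the 34 gene lists were chosen with earlier results of these data known. Genes that could be named by rule were Cbx2, the 12 largest rises and falls that passed with groups apart and a mean of 5 TPM or more (clones and predicted genes left out), the PRC1 and PRC2 subunits, and up to 3 called or 2 other members per list; others are said to be picked afterwards. Most called genes are counted but not described, and some called or listed members are not reported here.

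Replicate numbers did not pair libraries: the correlation of deviations between same-numbered Cbx2 knockout and control libraries lay between -0.010 and 0.0043. Promoters were compared with edlib 1.3.9.post1 in Python 3.11.15, and figures drawn with matplotlib 3.10.9. Alternatives were another pseudocount, no filter, quantile normalization, library weights, fits of fewer libraries with and without a replicate block, a 2-fold minimum, and leaving out each library.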

Additional observations from a re-analysis of the deposited data

How the results depend on the processing

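The number of genes passing moved most with how the spread was estimated. Against the control, where 179 genes passed, 315 passed with no filter on low values, 1903 with library weights, 2088 in a fit of batch 3 alone, 1681 in a fit of the 6 libraries alone, and 114 with at least a 2-fold change. Of the 179, 173 passed in the fit of batch 3 alone and 179 with library weights. Against the mean of the 4 other knockouts (77 genes) these counts were 207, 654, 722, 706 and 42. Against the Cbx7 knockout (68 genes) they were 178, 1383, 1104 and 1160 in the same order, with 42 at a pseudocount of 0.1, and against the Rnf2 knockout (73 genes) 211, 1023, 707 and 759, with 37 at that pseudocount. With the replicate number as a block, the fit of batch 3 gave 1981, 672, 1007 and 644 genes for the 4 comparisons, and the fit of the compared libraries gave 1674, 628, 1202 and 610. Of 3 Cbx2 knockout libraries only 1 correlated best with the control library of its own number. Leaving out 1 library gave 105 to 127 genes against the control, 46 to 84 against the other knockouts, 31 to 42 against Cbx7 and 35 to 43 against Rnf2. The count fell by more than 1.5 times without any of these libraries, except Cbx2 knockout replicate 1 against the control (127), and against the other knockouts only without Cbx2 knockout replicate 2 (46).

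Of 72 called genes looked at singly against the control, 53 passed without each library that could be left out in turn. Of those looked at, Ctsll3, Dppa1, Sult1e1, Prl7d1, Pate12, Samsn1, Prl8a1, Serpinb9f and Igfbp1 could be tested in only 3 of the 6 runs, since the filter dropped them in the others. They reached 1 TPM in one group alone and so had to differ. They are counted among the 53, and their kept calls are no sign of stability. Over all alternatives 903 values kept their call, 78 lost it and 0 changed sign. Of 52 genes not called, 586 values remained so and 130 passed, and 0 of these 130 changed sign. Among values that did not pass, some changed sign. The change of Cbx8, for example, lay between -0.05 and 0.42 when 1 library was left out. Depth in reads is unknown, and genes listed at 0 may lie below what these libraries could detect. The alternatives for genes named over the other knockouts, and for genes picked afterwards, were added after the data had been seen.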

Other observations

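A few changes against the control lie outside the gene groups described above and were picked after their values were seen. Igfbp1, a binding protein of insulin-like growth factors, was at 2.46, 6.77 and 2.78 TPM in Cbx2 knockout libraries, against 0.135, 0 and 0 TPM in control libraries, and it averaged 0 to 0.278 TPM in the 4 other knockouts of the batch. It reached 1 TPM in the Cbx2 knockout alone, so no p is given. Fabp3, a fatty acid binding protein and one of the most abundant transcripts here, was at 6919.6, 6984 and 6979 TPM in Cbx2 knockout libraries, against 4529, 4482 and 4404 TPM in control libraries (log2 change 0.64, limma adjusted p = 3.32e-05). Car4, a membrane carbonic anhydrase, was at 193, 178 and 171 TPM in Cbx2 knockout libraries, against 68.5, 51.1 and 59.4 TPM in control libraries (log2 change 1.59, adjusted p = 6.82e-15). Its median in the control libraries of other batches was 292 TPM, above both groups. Malat1, a nuclear noncoding RNA, was at 584, 547 and 612 TPM in Cbx2 knockout libraries, against 274, 281 and 278 TPM in control libraries (log2 change 1.06, adjusted p = 2.05e-08). It averaged 214 TPM in the Jarid2 knockout and 416 to 538 TPM in the Cbx7, Rnf2 and Atrx knockouts. Of 11 tested Rhox homeobox genes, an X-linked cluster, Rhox4g rose by 1.56 on the log2 scale, Rhox4b was higher by 1.48 but reached 1 TPM in the Cbx2 knockout alone, and 0 fell. Of all genes tested 1.66% passed.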
